A study of Mus musculus with 4 samples.

Results

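The transcripts described here are those of the ATF4 amino acid response and of the cytosolic aminoacyl-tRNA synthetases, measured in RAW264.7 cells, a mouse macrophage line. The set is a list of 33 gene symbols, whose members were found by matching those symbols to the deposited gene table. 32 of the 33 had a row among the 14435 genes of that table, and Vldlr was not analysed here. They are 19 genes of the response itself and 13 synthetase genes, and all 32 passed the filter on low counts. Both groups of cells were treated with E. coli lipopolysaccharide (LPS), a bacterial cell wall component that activates macrophages through the receptor TLR4, for 12 hours. The control cells were transfected with a nonspecific shRNA and the knockdown cells with an shRNA against Mettl3, which encodes the catalytic subunit of the enzyme complex that writes N6-methyladenosine on RNA. Each group had 2 libraries (n = 2). The labels do not say whether these came from separate cultures, nor whether the shRNA cells were a clone or a pool. The p-values therefore reflect the spread between these libraries alone, and that spread may be technical. The main test also drew on the spread of other genes, so a gene's p-value or SE does not rest on its own replicates alone. No library without LPS was used, so every difference given is one between LPS-treated cells.

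ATF4 is a transcription factor whose protein is made when the initiation factor eIF2 is phosphorylated, as happens on amino acid shortage, endoplasmic reticulum stress and other stresses. With partner proteins of the C/EBP family it binds a composite DNA element and raises transcription of genes for amino acid synthesis, amino acid transport, tRNA charging and feedback on the pathway. Aminoacyl-tRNA synthetases attach each amino acid to its tRNA, and several of their genes are known ATF4 targets. Much of the control of ATF4 itself is on translation, which RNA sequencing does not measure.

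The members moved in both directions. Among the 32, 12 rose and 4 fell in edgeR's quasi-likelihood test at a Benjamini-Hochberg adjusted p below 0.05. Over all 11035 tested genes 21.4% rose and 22.3% fell, 43.7% in either direction, so the share of members that rose (37.5%) lay above the background and the share that fell (12.5%) below it. The largest rises were in Trib3, Atf5 and Chac1, each over 2-fold, and the largest falls in Slc3a2 and Nupr1. The median log2 fold change, knockdown over control, was 0.16 over the members and 0.01 over all tested genes. It was 0.18 over the 19 response genes and 0.01 over the 13 synthetases. The count of 12 was 7 without knockdown replicate 1 and 6 without knockdown replicate 2, where 13.5% and 15.0% of all tested genes rose. DESeq2 called 6 rises, against 14.5% of all tested genes. Counts are given as CPM scaled by TMM factors, and with the authors' TPM the counts were 18 that rose and 3 that fell, where 32.0% of all tested genes rose and 13.7% fell and the median of all genes was 0.14. In these bulk RNA samples a change in the share of cells that express a gene and a change in RNA per cell cannot be told apart.

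The libraries held between 16342313 and 17193639 estimated counts. Mettl3 was lower in both knockdown libraries, at 11.5 and 11.2 CPM against 30.9 and 29.9 CPM in the controls (log2 fold change -1.42, SE 0.10). Its deposited counts had fractions, so some of its reads may be divided with another gene. One label of knockdown replicate 2 names METTL4. Mettl4 had 26.4 and 24.3 CPM in the controls and 24.4 and 24.8 CPM in the knockdown libraries, and was not called (log2 fold change -0.04, SE 0.09). All 9 macrophage markers examined had counts in every library. Their summed level was 17500 and 16900 TPM in the controls and 11900 and 11800 TPM in the knockdown libraries. Lyz2 was the largest part of this sum, at a mean of 9822 TPM in the controls and 5867 TPM in the knockdown libraries. Of the 9 markers 6 fell and 1 rose, where 22.3% of all tested genes fell and 21.4% rose. Mean TPM was higher after knockdown for Ptprc, which rose (98.4 to 163), and for Spi1 (861 to 907) and Fcgr1 (40.2 to 78.4), which were not called. In CPM Spi1 was slightly lower, at 749 and 739 in the controls against 704 and 722 (log2 fold change -0.06, SE 0.07). The part of these marker differences in the results below was not tested. The 5 fibroblast markers with a row in the table (of 8 examined) summed to 0.09 and 0.12 TPM in the controls and 1.5 and 0.58 TPM in the knockdown libraries. Col1a1, Col1a2 and Col3a1 were at 0 counts in both controls. The single lymphocyte marker with a row, Cd79a, had at most 2 counts in a library.

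The composite element that ATF4 binds with C/EBP proteins was looked for in the members' promoters, because it is the feature that the best-studied genes of the response share. The letters searched were TGATGNAA, on both strands, in the 250 bases before each gene's start in the RefSeq promoter table for build GRCm38.p6. 26 of the 32 members matched a gene of that table, and Slc7a5, Cars, Lars, Nars, Vars and Wars did not. 8 of the 26 held the letters, against 3.91% of the 27025 genes in the table. A longer form, TGATGCAAT, which contains the shorter one, was in 3 of the 26 members and in 0.192% of all genes. The members were listed as genes of this response, so both contrasts follow in part from that choice and are no test of these data. The 8 members with a match differed in direction. Aars and Chac1 rose, Nupr1 fell, and Atf3, Asns, Pycr1, Gars and Tars were not called. The 250 bases before the start are shown in full for the 3 that were called, read 5′ to 3′ on the gene's strand, with the matched bases in capitals. The Chac1 sequence is chr2:119350992-119351241 (plus strand), that of Aars is chr8:111033592-111033841 (plus strand) and that of Nupr1 is chr7:126625471-126625720 (minus strand), all in GRCm38.p6.
Chac1: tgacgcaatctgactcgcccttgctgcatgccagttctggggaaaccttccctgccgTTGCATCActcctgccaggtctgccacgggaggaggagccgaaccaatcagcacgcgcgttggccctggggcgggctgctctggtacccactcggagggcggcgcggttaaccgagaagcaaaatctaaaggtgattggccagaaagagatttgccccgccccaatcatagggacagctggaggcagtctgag
Aars: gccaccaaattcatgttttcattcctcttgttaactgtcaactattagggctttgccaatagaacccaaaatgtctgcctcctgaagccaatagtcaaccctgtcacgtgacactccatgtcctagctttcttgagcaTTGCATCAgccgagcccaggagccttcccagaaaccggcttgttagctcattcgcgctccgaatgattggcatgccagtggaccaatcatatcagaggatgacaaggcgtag
Nupr1: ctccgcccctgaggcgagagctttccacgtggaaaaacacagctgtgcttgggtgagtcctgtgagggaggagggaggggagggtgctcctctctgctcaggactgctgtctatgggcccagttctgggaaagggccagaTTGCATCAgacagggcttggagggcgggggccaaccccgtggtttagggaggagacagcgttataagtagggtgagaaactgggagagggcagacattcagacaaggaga

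The other 5 members with the letters are shown by the match and up to 20 bases on either side, ending at the start site where that is nearer. In Asns and Pycr1 the letters read forward on the gene's strand, and in Atf3, Gars and Tars they are the reverse complement, as they are in the 3 sequences above.
Atf3: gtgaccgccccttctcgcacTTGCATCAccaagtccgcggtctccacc
Asns: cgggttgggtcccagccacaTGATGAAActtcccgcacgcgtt
Pycr1: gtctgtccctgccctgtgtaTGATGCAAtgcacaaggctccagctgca
Gars: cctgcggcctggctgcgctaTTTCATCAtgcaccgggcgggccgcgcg
Tars: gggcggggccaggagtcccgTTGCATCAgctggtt

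Of the 9 members with a promoter entry that rose, 2 held the letters, of the 3 that fell 1 did, and of the 14 that were not called 5 did. Atf5, Trib3 and Slc3a2, which are among the members that changed most, had no match in this window, which says only that these letters are not within it.

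Of the 4 transcription factors, 2 rose, where 21.4% of all tested genes rose. Atf5 encodes a relative of ATF4 whose translation is controlled in a similar way. It had 38.5 and 38.8 CPM in the controls and 82.9 and 83.7 CPM in the knockdown libraries. The groups were far apart and each pair nearly equal, a 2.15-fold rise (log2 fold change 1.11, SE 0.07, edgeR adjusted p = 7.99e-07). Atf4 rose far less. It had 177 and 194 CPM in the controls and 234 and 224 CPM in the knockdown libraries, with both knockdown values above both controls (log2 fold change 0.30, SE 0.08, edgeR adjusted p = 0.00715). Without knockdown replicate 1 its edgeR adjusted p was 0.11. Atf3, a stress-induced repressor and activator that LPS also induces in macrophages, overlapped between the groups, at 109 and 147 CPM against 156 and 139 CPM. The log2 fold change, 0.20 (SE 0.16), missed the threshold. It was -0.01 when control replicate 1 was left out, and 0.43, and called, when control replicate 2 was left out. Cebpg, a C/EBP protein that pairs with ATF4, had 28.04 and 26.3 CPM against 31.4 and 30.1 CPM (log2 fold change 0.18, SE 0.09, not called). Cebpg was called on the TPM scale (0.30) and with library size as the scaling (0.27).

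**Figure D1:**
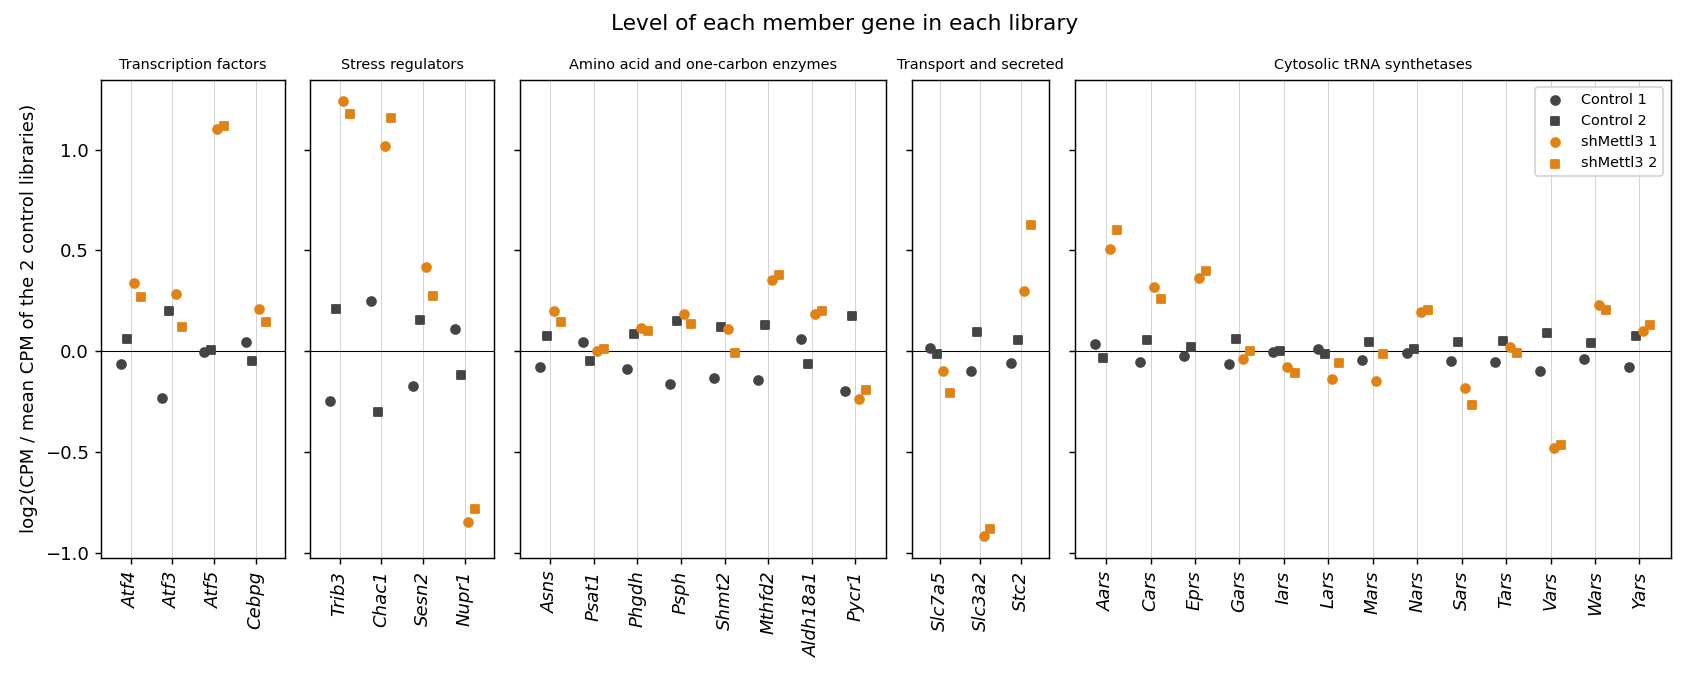
Each point is 1 library's CPM for a member gene, as log2 of its ratio to the mean of the 2 control libraries (vertical axis), with genes grouped by role (horizontal axis), controls in grey and knockdown libraries in orange. Trib3, Chac1 and Atf5 stand about 1 unit above the controls in both knockdown libraries and Slc3a2 and Nupr1 stand below them, while most amino acid enzymes lie within the spread of the controls or close to it.

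All 4 stress regulators were called, 3 up and 1 down, where 43.7% of all tested genes were called in either direction. A group of 4 genes is too small to weigh against that share. Trib3 encodes a pseudokinase that binds ATF4 and holds it back, and is among the most sensitive targets of the pathway. It had 6.14 and 8.44 CPM in the controls against 17.2 and 16.5 CPM in the knockdown libraries, the largest rise among the members at 2.31-fold (log2 fold change 1.21, SE 0.15, edgeR adjusted p = 8.61e-05). Chac1 encodes an enzyme that breaks down glutathione. Its estimated counts were low, 25 and 17 for the controls against 43 and 49 after knockdown, and the groups did not overlap (log2 fold change 1.08, SE 0.28, edgeR adjusted p = 0.0094). Its call was lost in DESeq2 (adjusted p = 0.077) and in edgeR without control replicate 2 (adjusted p = 0.055) or knockdown replicate 2 (adjusted p = 0.0592). Sesn2 encodes a leucine sensor that restrains the growth kinase complex mTORC1. It had 14.4 and 18.1 CPM against 21.7 and 19.6 CPM (log2 fold change 0.35, SE 0.13, edgeR adjusted p = 0.0444), with the upper control close to the lower knockdown library. Its call was lost in 7 of 14 alternatives, and leaving out control replicate 1 or 2 gave 0.18 or 0.51.

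Nupr1 went the other way. It encodes a small nuclear stress protein that is usually induced together with Trib3 and Atf3. It had 37.7 and 32.2 CPM in the controls and 19.4 and 20.3 CPM in the knockdown libraries, 1.76-fold lower, with both knockdown values below both controls (log2 fold change -0.82, SE 0.10, edgeR adjusted p = 9.21e-05).

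Among 8 enzymes that make amino acids or carry one-carbon units, 1 rose and the other 7 were not called. Over all tested genes 21.4% rose and 22.3% fell. Mthfd2, a mitochondrial enzyme of the folate cycle, had 57.1 and 69.2 CPM in the controls and 80.5 and 82.0 CPM in the knockdown libraries, so the groups were apart (log2 fold change 0.36, SE 0.09, edgeR adjusted p = 0.00834). Leaving out control replicate 1 or 2 gave 0.22 or 0.50, called both times. Asns, asparagine synthetase and the model target of the amino acid response, had 140 and 155 CPM against 169 and 163 CPM. Both knockdown values were higher, but by an amount close to the gap between the controls (log2 fold change 0.17, SE 0.08, edgeR adjusted p = 0.0911). Asns was called on the TPM scale (log2 fold change 0.31), with library size as the scaling (0.27) and without control replicate 2 (0.24).

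The 3 enzymes of serine synthesis hardly differed. Phgdh, which catalyses the first step, had 208 and 235 CPM in the controls and 239 and 237 CPM in the knockdown libraries (log2 fold change 0.11, SE 0.08). Psat1, the transaminase of the second step, stayed between 146 and 155 CPM in all 4 libraries (log2 fold change 0.01, SE 0.07). Psph, the phosphatase of the last step, had 24.7 and 30.6 CPM against 31.4 and 30.3 CPM (log2 fold change 0.16, SE 0.11). Shmt2, which turns serine into glycine in mitochondria, had a log2 fold change of 0.05 (SE 0.09). Its groups overlapped, as did those of Psat1 and Psph but not those of Phgdh. On the TPM scale Phgdh and Psph passed the test with log2 fold changes of 0.25 and 0.30, and in edgeR without control replicate 2 with 0.19 and 0.32. Of the proline enzymes, Aldh18a1 had 44.1 and 40.6 CPM against 48.1 and 48.6 CPM (log2 fold change 0.19, SE 0.08, edgeR adjusted p = 0.0696). It was called on the TPM scale (0.32), with library size as the scaling (0.29) and without control replicate 1 (0.24). Pycr1, which completes proline synthesis, was not called (log2 fold change -0.22, SE 0.16). Control replicate 1, at 8.12 CPM, lay among the knockdown values of 7.91 and 8.16 CPM while control replicate 2 was at 10.5 CPM, and without control replicate 1 the value was -0.40 and called.

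**Figure D2:**
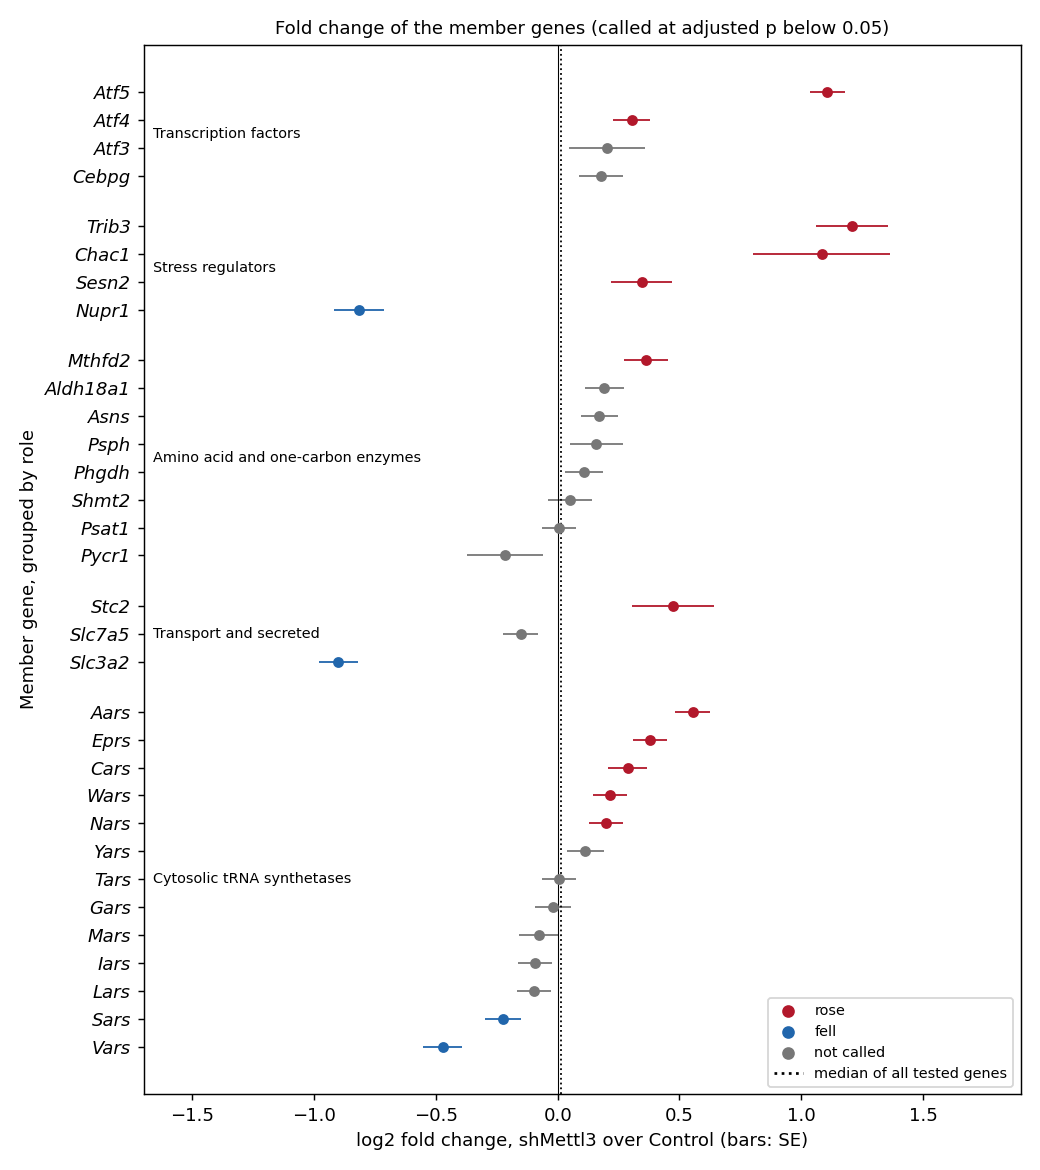
Log2 fold change of each member gene, knockdown over control (horizontal axis), with bars for the SE and colours for the edgeR call; n = 2 libraries per group and the dotted line is the median of all tested genes, 0.01. Red points mark the 12 members that rose, from Nars at 0.20 to Trib3 at 1.21, and blue points the 4 that fell, from Sars at -0.23 to Slc3a2 at -0.90.

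Of 3 genes for transport and secreted proteins, 1 fell, 1 rose and 1 was not called, where 22.3% of all tested genes fell and 21.4% rose. Slc3a2 encodes the heavy chain CD98, which partners several amino acid transporters at the cell surface. It had 505 and 578 CPM in the controls and 287 and 294 CPM in the knockdown libraries, 1.87-fold lower (log2 fold change -0.90, SE 0.08, edgeR adjusted p = 8.64e-06). Its deposited counts had fractions too, the only ones among the 32 members, and its values are uncertain to that extent. Slc7a5, the leucine transporter LAT1 and a partner of CD98, had 95.3 and 93.2 CPM against 87.9 and 81.7 CPM (log2 fold change -0.15, SE 0.07, not called). Slc7a11, the cystine transporter that also pairs with CD98 and is an ATF4 target outside the 33 genes, had 472 and 485 CPM against 153 and 157 CPM (log2 fold change -1.63, SE 0.07, edgeR adjusted p = 5.86e-08). Stc2, a secreted glycoprotein induced by stress, had 5.30 and 5.72 CPM against 6.78 and 8.51 CPM (log2 fold change 0.47, SE 0.17, edgeR adjusted p = 0.0408). The 2 knockdown values differed by more than the gap between the groups, and without knockdown replicate 2 the value was 0.30 (edgeR adjusted p = 0.36). Its call was also lost without control replicate 1 (edgeR adjusted p = 0.0988), in DESeq2 (adjusted p = 0.194) and in limma-voom (adjusted p = 0.0587).

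The 13 synthetases did not move together: 5 rose, 2 fell and 6 were not called. These are 38.5% that rose and 15.4% that fell, against 21.4% and 22.3% of all tested genes. Aars, the alanyl-tRNA synthetase, rose most, from 183 and 175 CPM to 254 and 271 CPM, a 1.47-fold change with both groups well apart (log2 fold change 0.55, SE 0.07, edgeR adjusted p = 1.33e-04). Eprs, which encodes the joint synthetase for glutamate and proline, rose from 241 and 249 CPM to 314 and 322 CPM (log2 fold change 0.38, SE 0.07, edgeR adjusted p = 0.00127). The other rises were small. Cars, for cysteine, had 34.9 and 37.6 CPM against 45.2 and 43.3 CPM (log2 fold change 0.29, SE 0.08). Wars, for tryptophan and also induced by interferon, had 151 and 159 CPM against 181 and 179 CPM (0.22, SE 0.07). Nars, for asparagine, had 249 and 252 CPM against 287 and 288 CPM (0.20, SE 0.07). These 3 calls were lost in edgeR without either knockdown library. They were also lost in DESeq2, where 2 synthetases rose and 14.5% of all tested genes did. The call on Wars was also lost without control replicate 1 (edgeR adjusted p = 0.0583).

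Vars, the valyl-tRNA synthetase, fell, with 167 and 190 CPM in the controls and 128 and 129 CPM in the knockdown libraries (log2 fold change -0.47, SE 0.08, edgeR adjusted p = 6.44e-04). Sars, for serine, fell from 255 and 272 CPM to 232 and 219 CPM (log2 fold change -0.23, SE 0.07, edgeR adjusted p = 0.0297). The call on Sars was lost on the TPM scale (-0.08), with library size as the scaling (-0.13) and without either knockdown library. Gars, Iars, Lars, Mars, Tars and Yars, for glycine, isoleucine, leucine, methionine, threonine and tyrosine, were not called, with log2 fold changes between -0.10 and 0.11. With log2(TPM + 1) these 6 values were all above 0, but the median of all tested genes was itself 0.14 there. Gars, Iars, Lars and Mars lay below that median, and Yars was called (0.25). Of these only Iars, Lars and Yars had groups that did not overlap.

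**Figure D3:**
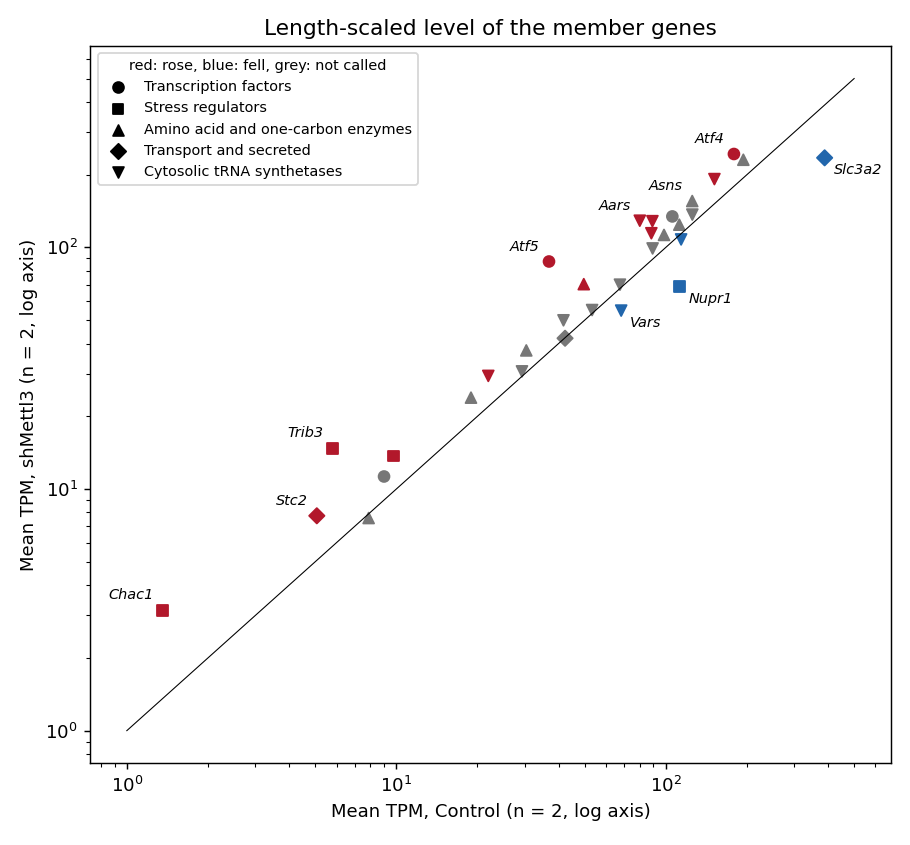
Mean TPM of each member gene in the controls (horizontal log axis) and in the knockdown libraries (vertical log axis), n = 2 each, with the line of equal levels, shapes for role and colours for the edgeR call on counts. Trib3, Atf5 and Chac1 lie above the line and Slc3a2, Nupr1 and Vars below it, and many genes that were not called lie slightly above it, as did the median of all tested genes, at 0.14 on the log2(TPM + 1) scale.

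Levels can be compared between genes on the TPM scale, which is divided by gene length. In the controls Slc3a2 was the most abundant member, at a mean of 389 TPM, followed by Phgdh at 194 TPM and Atf4 at 179 TPM. In the knockdown libraries these 3 were close, with Atf4 at 248 and 240 TPM, Slc3a2 at 230 and 240 TPM and Phgdh at 231 and 230 TPM. Chac1 and Trib3, with large relative rises, were among the lower members, and went from means of 1.36 and 5.78 TPM to 3.15 and 14.8 TPM. Atf5, at 36.9 TPM in the controls and 87.5 TPM after knockdown, was at or above 68.8% of tested genes in the controls. The 13 synthetases ranged in the controls from 21.9 TPM for Cars to 152 TPM for Nars.

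The members also differed between the control libraries. 24 of the 32 were higher in control replicate 2 than in control replicate 1, against 50.7% of all tested genes, and the median difference was 0.10 on the log2 CPM scale against 0.00. Trib3 (0.45), Atf3 (0.43), Pycr1 (0.37) and Sesn2 (0.33) were the most raised in control replicate 2, while Chac1 was lower there (-0.51). Between the knockdown libraries 17 of 32 were higher in replicate 2, and the median difference was 0.01. With the groups taken as they are, 17 members had both knockdown values above both controls and 7 had both below, where 37.1% and 36.3% of all tested genes did so. Leaving out control replicate 1 brought the members' median log2 fold change to 0.03, and that of the 19 response genes to 0.08. Leaving out control replicate 2 brought them to 0.19 and 0.24.

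8 of the 16 called members were called in all 14 alternative fits. They were Atf5, Trib3, Mthfd2, Aars and Eprs, which rose, and Nupr1, Slc3a2 and Vars, which fell. For the other 8, Atf4, Chac1, Sesn2, Stc2, Cars, Nars, Wars and Sars, the call was lost in at least 1 alternative. The same count over all called genes is not given here, so 8 of 16 cannot be called many or few.

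The other genes of the pathway were taken from 4 lists, and their counts are read against the same background of 21.4% that rose and 22.3% that fell. Among 22 tested genes of a list of other ATF4-linked genes, 8 rose and 7 fell, with a median log2 fold change of -0.11. Herpud1, a factor of protein degradation at the endoplasmic reticulum, had 45.6 and 58.8 CPM against 115 and 102 CPM (1.05, SE 0.12). Ddit3, which encodes the stress factor CHOP, had 11.1 and 13.6 CPM against 21.0 and 19.4 CPM (0.71, SE 0.12). Slc38a2, a neutral amino acid transporter, had 241 and 205 CPM against 292 and 305 CPM (0.42, SE 0.09). Besides Slc7a11, the largest falls were in the autophagy receptor gene Sqstm1 (-0.88, SE 0.08) and the growth factor gene Vegfa (-0.48, SE 0.11), which was not called on the TPM scale (-0.29) or without knockdown replicate 1 (edgeR adjusted p = 0.0529). In DESeq2 5 genes of this list rose and 6 fell, where 14.5% of all tested genes rose and 16.9% fell. With log2(TPM + 1) 9 rose and 3 fell, where 32.0% of all tested genes rose and 13.7% fell. Fewer genes of this list were called without knockdown replicate 1, where fewer of all tested genes were called too.

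The list of eIF2, its exchange factor eIF2B and their regulators had 3 of 16 genes that rose and 5 that fell, with a median of 0.01. Ppp1r15b, a subunit that directs a phosphatase to eIF2 and so reverses its phosphorylation, had 109 and 96.9 CPM in the controls and 197 and 176 CPM in the knockdown libraries, the largest change in this list (0.86, SE 0.08, edgeR adjusted p = 1.81e-05). Ppp1r15a, the stress-induced counterpart GADD34, rose by less, from 38.0 and 45.9 CPM to 52.3 and 49.9 CPM (0.28, SE 0.09). Its value was 0.14 without control replicate 1 and its call was lost there, without either knockdown library and in DESeq2. Of the 5 eIF2B subunits, Eif2b1 (-0.31), Eif2b3 (-0.33), Eif2b4 (-0.26) and Eif2b5 (-0.25) fell and Eif2b2 (0.35) rose. Without knockdown replicate 1 the edgeR adjusted p of these 5 lay between 0.0526 and 0.208, and on the TPM scale the 4 that fell were not called, with values between -0.19 and -0.11. Ppp1r15b kept its call in all 14 alternatives. Fewer genes of this list were called without either knockdown library, where fewer of all tested genes were called too. Of the kinases that phosphorylate eIF2, Eif2ak1, the kinase HRI, fell slightly (-0.21, SE 0.07), a call that was lost in 8 of 14 alternatives, among them DESeq2, the TPM scale and the fits without control replicate 1 or either knockdown library. Eif2ak2, the interferon-induced kinase PKR, had 199 and 143 CPM against 241 and 214 CPM and was not called (0.41, SE 0.18), and neither were Eif2ak3 and Eif2ak4. The kinase genes were named after their values were seen.

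**Figure D4:**
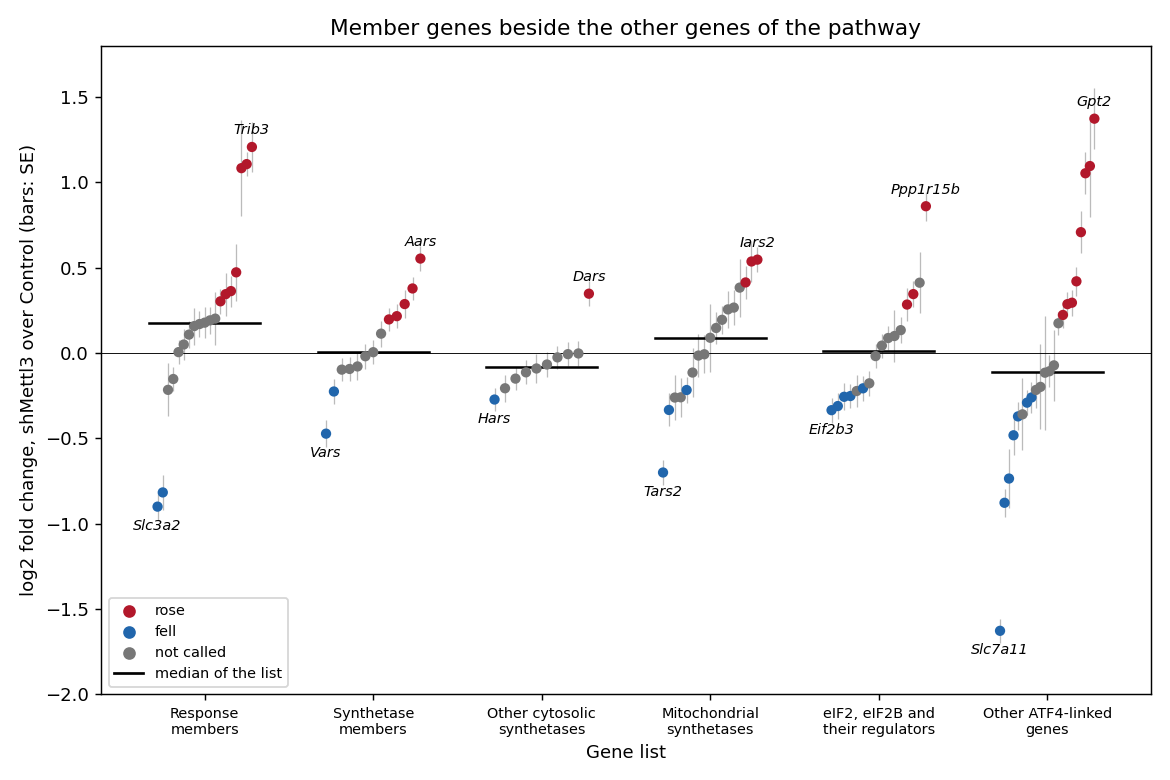
Log2 fold change, knockdown over control (vertical axis), of the 19 response members, the 13 synthetase members and 4 lists of other pathway genes, each sorted by value, with bars for the SE, colours for the edgeR call and a black line at each list's median. The medians lie between -0.11 and 0.18, and every list holds genes that rose and genes that fell.

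Outside the 13 member synthetases genes also went in both directions, in shares below those of all tested genes (21.4% rose and 22.3% fell). The shares were 10% each way in the other cytosolic list and 17.6% each way in the mitochondrial list. In a list of 10 genes, 7 for other cytosolic synthetase chains and 3 for scaffold proteins of the synthetase complex, 1 rose and 1 fell, with a median of -0.08. Dars, for aspartate, had 135 and 122 CPM against 164 and 164 CPM (0.35, SE 0.07) and Hars, for histidine, 171 and 167 CPM against 137 and 143 CPM (-0.27, SE 0.07). Hars was not called on the TPM scale, with library size as the scaling or without either knockdown library, and without control replicate 1 the list had 2 genes that fell. Of 17 mitochondrial synthetase genes 3 rose and 3 fell, with a median of 0.09. Iars2 (0.55, SE 0.07) and Aars2 (0.54, SE 0.12) were among those that rose. Tars2 had 58.2 and 60.8 CPM against 36.4 and 36.8 CPM (-0.70, SE 0.08), and Lars2 (-0.33) and Rars2 (-0.22) also fell. The calls on Lars2 and Rars2 were lost without either knockdown library, in DESeq2, with library size as the scaling and on the TPM scale, and that on Rars2 also without control replicate 2. With log2(TPM + 1) the mitochondrial counts were 8 that rose and 1 that fell, where 32.0% of all tested genes rose and 13.7% fell. With library size as the scaling they were 7 and 1, where 29.6% of all tested genes rose and 16.6% fell. More of these genes were called as rising without control replicate 1 than in the main fit, where slightly more of all tested genes rose too. For alanine, both the cytosolic gene Aars and the mitochondrial gene Aars2 rose, with log2 fold changes of 0.55 and 0.54.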

How the data were processed

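RNA of RAW264.7 cells was measured in 2 control and 2 knockdown libraries, grouped by sample title. Full-length cDNA was made from poly(A) RNA by template switching and PCR and read from one end on a BGISEQ-500, per the labels' protocols, which mention no molecular identifiers or strand marking. The authors deposited an estimated count and a TPM value per gene and library, which the file headers name read count and TPM. RSEM 1.2.12, HISAT2 2.0.4, Bowtie2 2.2.5 and the build mm9 are named, without roles, per the submitters' processing notes. No source used here gives the annotation or strand setting, so reads of antisense partners cannot be told apart. The table has 0 columns of other samples, and 1808 genes had counts that were not whole.

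Counts were rounded and tested with edgeR 4.0.16 (R 4.3.3, quasi-likelihood, robust, TMM, filterByExpr with a minimum count of 10 and total of 15), checked on simulated data. Benjamini-Hochberg adjustment covered all 11035 tested genes, with calls below 0.05. Each SE was taken as the log2 fold change divided by the root of the F statistic. The spread behind it had 2 residual degrees of freedom per gene and a median of 9.07 borrowed from other genes. The common biological coefficient of variation was 0.0678. Total estimated counts of 16342313 to 17193639 per library limit precision mainly for members with few counts, such as Chac1. Replicates differed by more than sampling noise (chi-square over its degrees of freedom 11.7 for the control pair and 4.25 for the knockdown pair). Every member is named, and from each other list the 3 genes that rose most and the 3 that fell most, if called, without overlap between groups and at 10 CPM or more in the higher group. Some genes of these lists are not reported here by name. The members and lists were chosen with earlier results of these data known. Alternatives were DESeq2 1.42.0, limma 3.58.1 (voom, and log2(TPM + 1) or log2(TPM + 0.1)), other scalings and filters, a replicate block and leaving out each library. Promoter sequences are RefSeq's on GRCm38.p6, a later build than mm9, matched by Entrez gene.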

Additional observations from a re-analysis of the deposited data

How the results depend on the processing

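With 2 libraries per group, fits that leave out 1 library assume that the lone library varies like the other group. Over all tested genes 4826 were called, and leaving out 1 library gave between 3095 and 5324. Calls that rose were 48.9% of all calls with TMM, 64.1% with library size alone, 70.0% with log2(TPM + 1) and 69.9% with log2(TPM + 0.1), and the median of all genes moved from 0.01 to 0.11, 0.14 and 0.15. Members that rose numbered 12, and 6 in DESeq2 and between 6 and 15 when 1 library was left out. Response members that rose numbered 7, against 4 in DESeq2, 12 with log2(TPM + 1) and 12 with log2(TPM + 0.1), and between 4 and 10 when 1 library was left out. Synthetases that rose numbered 5, against 2 in DESeq2 and between 2 and 5 when 1 library was left out. Synthetases that fell numbered 2, against 1 with library size alone, 1 with log2(TPM + 1), 1 with log2(TPM + 0.1) and between 1 and 2 when 1 library was left out. The shares of all tested genes shifted too. The share that rose was 21.4% in the main fit, 14.5% in DESeq2, 29.6% with library size alone, 32.0% with log2(TPM + 1) and 31.8% with log2(TPM + 0.1). The share that fell was 22.3%, 16.9%, 16.6%, 13.7% and 13.7% in the same order. The cause of these shifts was not tested. The labels do not say that equal replicate numbers mark a shared culture. Replicate differences correlated between the groups at 0.146 across genes, and with the replicate number as a block (replicate block) 12 members rose and 4 fell, as without it, and 5116 genes were called. Values changed sign for some genes that were not called, and none of these was called with the opposite sign. With library size alone they were Gars (0.077), Iars (0.0021), Mars (0.017) and Mettl4 (0.051). With log2(TPM + 1) they were Gars (0.12), Iars (0.0525), Lars (0.0465), Mars (0.065) and Mettl4 (0.20), and with log2(TPM + 0.1) Gars (0.12), Iars (0.053), Lars (0.047), Mars (0.067) and Mettl4 (0.22). With no filter on low counts they were Psat1 (-0.0075) and Tars (-0.0079), and Tars was at -2e-04 in DESeq2 and with its size factors in edgeR. Leaving out 1 library gave ranges from -0.0106 to 0.429 for Atf3, from -0.0458 to 0.0405 for Psat1, from -0.0012 to 0.316 for Psph, from -0.0833 to 0.177 for Shmt2, from -0.0925 to 0.0406 for Gars, from -0.0572 to 0.0516 for Tars and from -0.108 to 0.0036 for Mettl4. Chac1 was not tested with a mean CPM of at least 5.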

Other observations

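In the list of other ATF4-linked genes, 3 called genes with fewer than 10 CPM changed by at least 0.7 on the log2 scale, and were chosen after their values were seen. Gpt2, a mitochondrial transaminase that makes alanine from glutamate and pyruvate, went from 46 and 46 estimated counts to 118 and 128 after knockdown. The log2 fold change, 1.37 (SE 0.18, edgeR adjusted p = 1.22e-04), was larger than that of any of the 32 members, and it was called in all 14 alternatives. Slc1a4, a transporter of alanine, serine and cysteine, went from 25 and 24 estimated counts to 66 and 42, a log2 fold change of 1.10 (SE 0.30, edgeR adjusted p = 0.0118). Its knockdown libraries differed, and the value was 0.71 without knockdown replicate 1 (edgeR adjusted p = 0.184). Its call was also lost in DESeq2 (adjusted p = 0.0575). Gadd45a, a stress gene of growth arrest, fell from 127 and 161 estimated counts to 95 and 83, a log2 fold change of -0.74 (SE 0.17, edgeR adjusted p = 0.00559), and was called in all 14 alternatives.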
